A study of Mus musculus with 21 samples.

Results

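Cholesterol synthesis genes were examined as a group of 7 genes, Hmgcs1, Fdft1, Sqle, Lss, Cyp51, Dhcr7 and Srebf2, chosen by gene symbol among the 37620 genes of the RNA-seq table of this study. A row was found for 6 of them, and Hmgcs1 was not analysed here. The study compared binding of the meiotic protein PRDM9 in vitro with recombination hotspots in vivo in mice, and RNA-seq gave it the expression of genes. RNA came from germ cells enriched from testes after collagenase and trypsin digestion. The mice were C57BL/6J (B6) at 12 days post-partum (12 dpp), and the cells were labelled as spermatocytes. The 12 libraries belong to 4 samples, each with 3 libraries, that the labels call 186wt, 343wt, 444wt and 456wt. The labels give all samples the same strain and age and name no treatment, so the design holds no contrast other than that between the samples. The study's methods describe RNA from 4 replicates, the number of the samples, and neither they nor the labels say how the 3 libraries of a number were made, so these may share 1 RNA. The p-values below therefore set the differences between these 4 samples against the spread between libraries, which may be technical.

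Cholesterol is built from acetyl-CoA in a long chain of enzymes. The early steps of the mevalonate pathway lead to farnesyl pyrophosphate, from which squalene is made and closed to lanosterol, and the late steps trim and reduce lanosterol to cholesterol. The genes of the chain share a regulator, SREBP2, which is held in the endoplasmic reticulum membrane by SCAP and INSIG proteins when sterols are plentiful and is cut free by S1P and S2P proteases when they run low. In the testis, Sertoli and Leydig cells need cholesterol for membranes and for steroid hormones, and sterol intermediates between lanosterol and cholesterol, the meiosis-activating sterols, accumulate in the gonads.

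The members span this chain and its regulator. Hmgcs1 encodes the synthase that makes HMG-CoA near its beginning. Fdft1 encodes squalene synthase, which commits farnesyl pyrophosphate to sterols, and lies on chromosome 14 of NCBI build 37 from 63763990 to 63796630 on the minus strand. Sqle encodes squalene epoxidase (chromosome 15, 59146632 to 59162747, plus strand), a rate-limiting enzyme of the later chain. Lss encodes lanosterol synthase (chromosome 10, 75994333 to 76019883, plus strand), which closes the sterol rings. Cyp51 encodes the demethylase that acts on lanosterol and yields the first meiosis-activating sterol (chromosome 5, 4081145 to 4104746, minus strand). Dhcr7 encodes the reductase of the last step (chromosome 7, 151009050 to 151034315, plus strand), the enzyme lacking in Smith-Lemli-Opitz syndrome. Srebf2 encodes SREBP2 itself (chromosome 15, 81977696 to 82035806, plus strand). All 6 genes with a row are protein-coding in the annotation of that build.

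Promoters are shown because SREBP2 acts on these genes through short DNA elements close to the start. RefSeq windows of 300 bases, with 250 bases before and 50 bases after the start, were at hand for 5 of the 7 genes. Windows of Sqle and Fdft1 were not analysed here. The windows follow GRCm38.p6, a later build than that of the expression values, and are written 5′ to 3′ on the strand of the gene. Capitals mark matches, on either strand, to TCACNCCAC (a sterol regulatory element), to its shortened and relaxed forms TCACNCCA and TCACNNCA, to CCAAT, the box bound by NF-Y, and to GGGCGG, the GC box bound by Sp1. The Hmgcs1 window is chr13:119690101-119690400 (plus strand), the Srebf2 window chr15:82147019-82147318 (plus strand), the Cyp51 window chr5:4104648-4104947 (minus strand) and the Lss window chr10:76531355-76531654 (plus strand).
Hmgcs1: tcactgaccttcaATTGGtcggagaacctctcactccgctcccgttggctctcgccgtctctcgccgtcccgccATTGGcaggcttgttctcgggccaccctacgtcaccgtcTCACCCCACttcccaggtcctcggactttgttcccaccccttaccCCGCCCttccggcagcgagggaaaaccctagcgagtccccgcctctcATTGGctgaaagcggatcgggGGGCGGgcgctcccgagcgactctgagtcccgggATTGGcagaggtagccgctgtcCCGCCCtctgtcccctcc
Srebf2: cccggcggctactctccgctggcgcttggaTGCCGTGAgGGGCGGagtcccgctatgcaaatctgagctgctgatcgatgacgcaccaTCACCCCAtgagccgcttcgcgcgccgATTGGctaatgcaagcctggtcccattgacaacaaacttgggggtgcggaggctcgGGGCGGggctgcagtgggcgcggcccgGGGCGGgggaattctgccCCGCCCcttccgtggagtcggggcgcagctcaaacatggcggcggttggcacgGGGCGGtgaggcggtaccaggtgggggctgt
Cyp51: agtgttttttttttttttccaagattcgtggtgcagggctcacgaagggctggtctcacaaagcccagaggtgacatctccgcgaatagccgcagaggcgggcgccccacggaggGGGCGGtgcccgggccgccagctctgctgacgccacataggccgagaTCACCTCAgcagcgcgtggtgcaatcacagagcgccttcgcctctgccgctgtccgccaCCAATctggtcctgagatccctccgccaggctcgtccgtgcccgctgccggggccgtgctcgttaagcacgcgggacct
Lss: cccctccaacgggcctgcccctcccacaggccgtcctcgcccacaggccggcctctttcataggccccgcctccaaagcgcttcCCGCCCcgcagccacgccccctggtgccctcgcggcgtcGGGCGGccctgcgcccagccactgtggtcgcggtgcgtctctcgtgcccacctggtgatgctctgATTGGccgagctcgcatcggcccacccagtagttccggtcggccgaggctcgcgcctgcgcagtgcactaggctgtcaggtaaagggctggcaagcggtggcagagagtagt

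The element in full was found in the Hmgcs1 window, at position -137 from the start, and in none of the windows of the other 4 genes. It is present in 1.24% of 32851 mouse promoter windows of the same length. Srebf2 carried the form without the last base at -162, a form found in 4.36% of windows. Cyp51 carried the relaxed form at -88, which 13.8% of windows hold, as do 2 of the 3 windows of Dhcr7, and Lss carried none of the 3 forms. The shortened and relaxed forms were added after the sequences had been seen, and TCACNCCA matches are also TCACNNCA matches. A CCAAT box was found in a window of each of the 5 genes, compared with 41.1% of 27025 genes with a window. A GC box was found likewise, compared with 38.2% of those genes. The Srebf2 window held 5 GC boxes and the Hmgcs1 window 4 CCAAT boxes. Dhcr7 has 3 RefSeq starts, and of its windows that starting at 143829964 on chromosome 7 held 2 CCAAT boxes and 3 GC boxes. An E-box (CACGTG, 7.15% of windows) was found in another Dhcr7 window, and a cAMP response element (TGACGTCA, 1.79% of windows) in no window of the 5 genes. Of 12 other enzymes of the chain with a window, 11 held a CCAAT box, 11 a GC box and none the full sterol element. These matches describe letters in a window and not binding.

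All 6 genes were expressed well above the typical gene. Values are FPKM, that is, fragments per kb of transcript and per mega (M) of aligned fragments, so that levels can be compared between genes. By an estimate from the steps between low values, the libraries held 13.1 to 18.2 M fragments. The lowest member had an estimated 449 to 850 fragments in a library and the highest 3736 to 5481. These numbers take each gene's longest annotated transcript as its length and are thus upper limits. The median member had 24.5 FPKM, whereas the 20795 genes that averaged 0.1 FPKM or more had a median of 5.005 FPKM. The top quartile of those genes began at 21.1 FPKM and contained 4 of the 6 members.

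Srebf2, the regulator, was the highest member in each of the 4 samples, with 61.5 ± 4.17 FPKM (SD, n = 4 samples), above 93.0% of expressed genes. Dhcr7 followed with 41.7 ± 3.54 FPKM. Both genes kept these places in all 12 libraries. The enzymes of the squalene and lanosterol steps lay close together below them. Fdft1 had 25.5 ± 4.79 FPKM, Sqle had 23.5 ± 3.71 FPKM and Lss had 21.0 ± 3.12 FPKM. Fdft1 exceeded Sqle in 3 of 4 samples and 9 of 12 libraries, with a log2 ratio of 0.11 ± 0.11 (SD, n = 4), so this pair was not separated. Sqle exceeded Lss in each sample, though in 10 of 12 libraries. Cyp51 was the lowest in each library, with 12.0 ± 1.45 FPKM. Within the sum of the 6 genes, the share of Srebf2 was 33.3 ± 1.57% (SD, n = 4) and that of Cyp51 6.46 ± 0.403%.

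The question the samples allow is whether the level of the chain differed between them. In 444wt the members were highest as a group, with a summed level of 211 FPKM. It was followed by 456wt (189 FPKM), 343wt (172 FPKM) and 186wt (167 FPKM). The libraries of 444wt (204 to 217 FPKM) did not overlap those of 456wt (184 to 195 FPKM), and both lay above 343wt (171 to 174 FPKM) and 186wt (161 to 171 FPKM), which did not overlap either. In bulk RNA, fewer cells of a type and less RNA per cell cannot be told apart. Of the single genes, 5 of 6 had their highest mean in 444wt, and Cyp51 had it in 456wt.

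**Figure D1:**
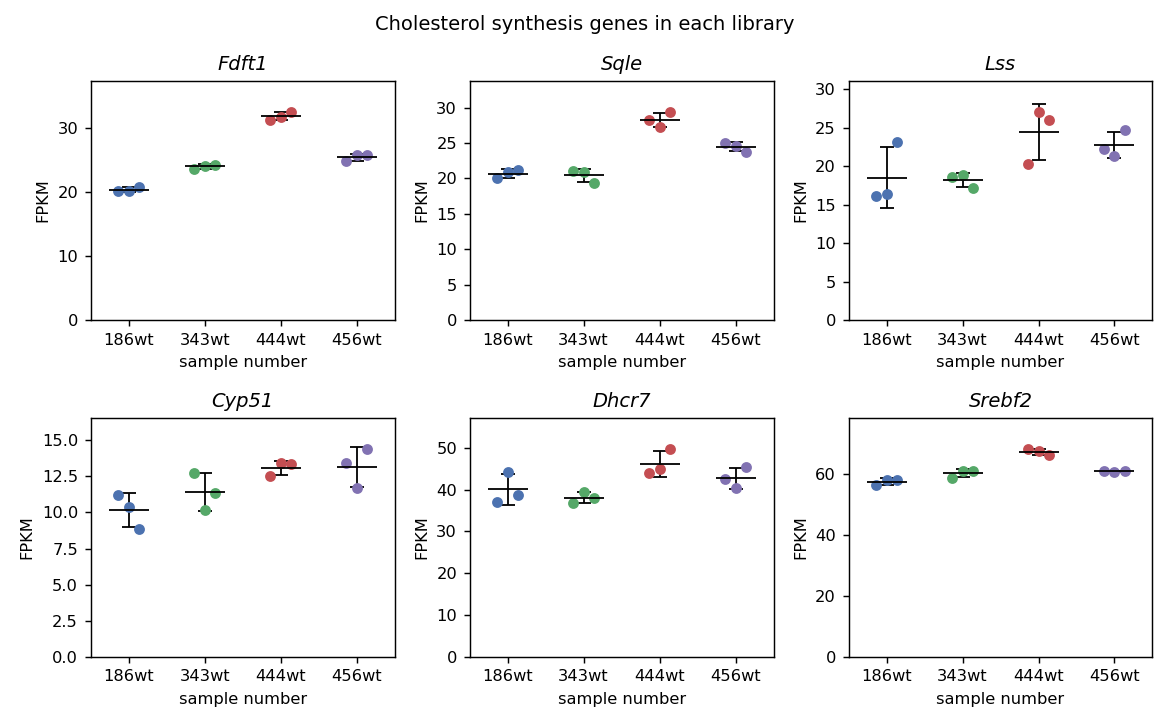
FPKM (linear axis from 0) of the 6 genes with values, in 4 samples. Coloured points are the 3 libraries of a sample, and the black line and bars are their mean ± SD. Fdft1, Sqle and Srebf2 show tight libraries with 444wt on top, whereas the libraries of Lss, Cyp51 and Dhcr7 scatter across samples.

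Fdft1 showed the widest range of the members. Its libraries were at 20.25, 20.16 and 20.85 FPKM (186wt), 23.66, 24.18 and 24.31 FPKM (343wt), 31.34, 31.83 and 32.54 FPKM (444wt) and 24.83, 25.77 and 25.84 FPKM (456wt). Each sample kept to a range of its own, with 186wt lowest and 444wt highest. The means differed 1.56-fold, or by 0.64 ± 0.03 (SE) on the log2(FPKM + 0.1) scale between 444wt and 186wt, and the difference between the samples passed the test (limma F-test across all genes, Benjamini-Hochberg adjusted p = 4.51e-08). Fdft1 shares 769 exon bases with Ctsb, a cathepsin gene on the opposite strand, and a strand setting of the counting is not given in the sources used here. Ctsb had 50.7, 55.2, 40.9 and 50.9 FPKM in the same order of samples and was thus lowest where Fdft1 was highest.

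Sqle separated the samples into a higher and a lower pair. Its libraries were at 20.01, 20.89 and 21.18 FPKM (186wt), 21.02, 20.86 and 19.43 FPKM (343wt), 28.21, 27.33 and 29.36 FPKM (444wt) and 25.06, 24.54 and 23.79 FPKM (456wt). The libraries of 186wt and 343wt overlapped, and those of 456wt and of 444wt lay apart above them. The 444wt mean was higher than the 343wt mean by 0.47 ± 0.04 (SE, log2), and the samples differed (limma adjusted p = 4.17e-06).

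Srebf2 varied least, yet its libraries were so close that 444wt was told apart from every other sample. They were at 56.22, 58.14 and 58.01 FPKM (186wt), 58.77, 61.01 and 61.03 FPKM (343wt), 68.22, 67.43 and 66.30 FPKM (444wt) and 61.06, 60.57 and 60.82 FPKM (456wt). Those of 444wt stood above all others, those of 186wt below all others, and 343wt and 456wt overlapped. The regulator thus differed 1.17-fold between 444wt and 186wt, by 0.23 ± 0.02 (SE, log2), compared with 1.38-fold between the extremes for Sqle and 1.56-fold for Fdft1 (limma adjusted p = 2.88e-05 for Srebf2). The microRNA gene Mir33, which lies inside Srebf2, is listed at 0 in all 12 libraries.

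Lss, Cyp51 and Dhcr7 had libraries that overlapped between samples, and they passed the test by less. Lss had 16.08, 16.36 and 23.14 FPKM (186wt), 18.59, 18.91 and 17.12 FPKM (343wt), 20.32, 27.03 and 26.06 FPKM (444wt) and 22.28, 21.36 and 24.70 FPKM (456wt). Because of the third library, 186wt overlapped every other sample, whereas 343wt lay below 444wt and 456wt, which overlapped each other. The sample means differed 1.34-fold (limma adjusted p = 0.0404).

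Cyp51 had 11.21, 10.40 and 8.87 FPKM (186wt), 12.76, 10.15 and 11.32 FPKM (343wt), 12.52, 13.43 and 13.33 FPKM (444wt) and 13.45, 11.67 and 14.40 FPKM (456wt). The libraries of 186wt lay below those of 444wt and 456wt, and those of 343wt overlapped all other samples. The 456wt mean was 1.30-fold the 186wt mean (limma adjusted p = 0.0233). Dhcr7 had 37.10, 44.29 and 38.68 FPKM (186wt), 36.77, 39.33 and 37.99 FPKM (343wt), 43.85, 45.03 and 49.72 FPKM (444wt) and 42.41, 40.42 and 45.34 FPKM (456wt). Its 343wt libraries were below those of 444wt and 456wt, and the second library of 186wt lay among the 444wt values. The means differed 1.21-fold (limma adjusted p = 0.0196).

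All 6 members thus passed the test, and so did 58.2% of the 20795 genes tested. Of the 6090 genes whose mean fell within the members' range of FPKM, 83.0% passed it. The members' count is therefore near what genes of this level showed. Members that passed the test and were highest in 444wt were 5 of 6, compared with 21.7% of all genes tested. Among genes within the members' range of FPKM, 39.9% had their highest mean in 444wt, whether or not they passed. The median difference between the highest and the lowest sample was 0.39 (log2) for the members, 0.55 for all genes tested and 0.32 for genes within the members' range, so the members' median lay between both of these.

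Tested pair by pair (limma, adjusted over all genes in each pair), 6 of 6 members were higher in 444wt than in 186wt, where 26.1% of all genes were called in that direction. In 5 of 6, with Cyp51 the exception, 444wt was higher than 343wt (all genes 30.4%). Fdft1, Sqle and Srebf2 were also higher in 444wt than in 456wt (13.1%). Between 456wt and 186wt, 4 members were higher in 456wt, namely Fdft1, Sqle, Cyp51 and Srebf2 (25.9%), and 2 were higher in 456wt than in 343wt, Fdft1 and Sqle (27.6%). Fdft1 was the only member higher in 343wt than in 186wt (9.93%), and none was higher in 186wt than in 343wt (10.5%). These pairs share samples and are not independent of each other.

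The scale of the samples bears on these counts. The median over all genes was higher in 444wt than in 186wt by 0.10 and than in 343wt by 0.14 (log2), and dividing each library by its median ratio to the other libraries reduced the first shift to 0.02. On that scale 444wt was higher than 186wt by 0.56 ± 0.03 for Fdft1, by 0.37 ± 0.04 for Sqle and by 0.15 ± 0.02 for Srebf2 (SE, log2), and these 3 genes still differed between the samples (limma adjusted p = 1.52e-07, 3.19e-05 and 0.000529). Lss, Cyp51 and Dhcr7 did not pass there (limma adjusted p = 0.132, 0.0815 and 0.182), so that 3 of 6 members were called compared with 56.2% of all genes. The members called higher in 444wt were then 4 of 6 against 186wt (19.3% of all genes) and 2 of 6, Fdft1 and Sqle, against 343wt (21.9%). Over all genes the same scale turned 5429 higher and 3386 lower calls in 444wt against 186wt into 4013 higher and 4262 lower calls. Among the other pairs, members called higher in 456wt than in 186wt were Fdft1, Sqle and Cyp51 (20.6% of all genes), so that Srebf2 was lost. In 456wt against 343wt, Sqle was called higher (19.8%), Fdft1 lost its call (log2 difference -0.003, from 0.08), and Srebf2 was called lower in 456wt (-0.07 ± 0.02, limma adjusted p = 0.0242, from 0.01). Fdft1 also lost this call under TPM scaling (limma adjusted p = 0.0737). In 343wt against 186wt, Fdft1 and Srebf2 were called higher (12.1%). On either scale 5 of 6 members had their highest mean in 444wt, while the order of the lower samples changed for 4 of the 6.

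Counting error can be set beside the spread between libraries. Expected counting error, from the estimated fragments, was between 1.47 and 3.76% of the mean for the 6 genes. The fragments assume each gene's longest annotated transcript, so where shorter transcripts are expressed the true counting error is larger. The libraries of a sample varied by 1.59% for Srebf2, 1.90% for Fdft1 and 3.42% for Sqle (pooled coefficient of variation). The counting error so estimated is 1.47%, 3.03% and 2.52% for these genes, so Fdft1 varied less than its estimate and Sqle more. The libraries varied by 13.7% for Lss, 9.62% for Cyp51 and 6.74% for Dhcr7, where the counting error so estimated is 2.13%, 3.76% and 2.39%. Transcripts shorter than 1 kb were annotated for these same 3 genes, 4 of 8 for Lss, 2 of 3 for Cyp51 and 7 of 10 for Dhcr7, and for none of the other 3. RSEM sums a gene's FPKM over its transcripts, and whether short transcripts had a part in the spread was not tested. Lss also shares 381 exon bases with 4930483K19Rik on the opposite strand, which had 0.186 FPKM.

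**Figure D2:**
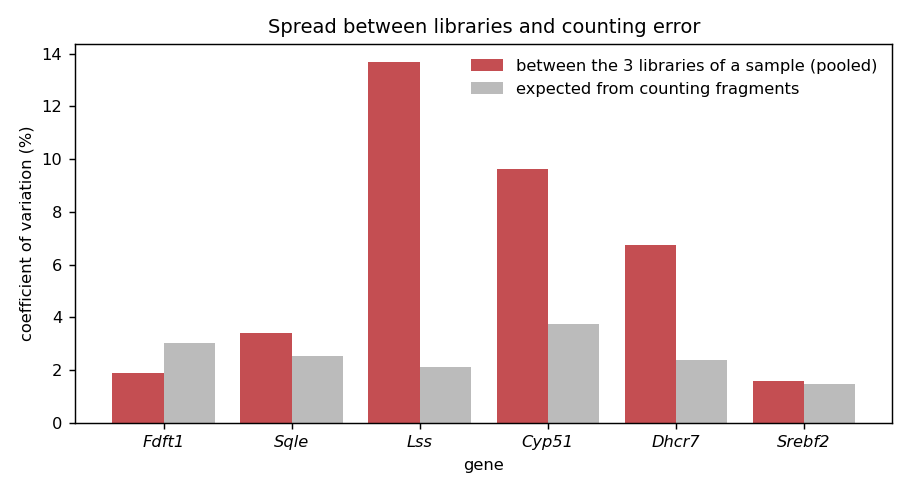
Coefficient of variation (%, linear axis from 0) of each gene between the 3 libraries of a sample, pooled over 4 samples (red). Beside it stands that expected from counting fragments alone, estimated with the longest annotated transcript (grey). Lss, Cyp51 and Dhcr7 exceed this estimate of their counting error by the most, at 13.7, 9.62 and 6.74%.

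The calls of Fdft1, Sqle and Srebf2 were made in each of 14 alternative settings and with each of the 12 libraries left out alone. Lss was not called without any 1 of 10 of the 12 libraries (limma adjusted p up to 0.102), and it was called without the third 186wt library (adjusted p = 0.00256) or the first 444wt library. Cyp51 lost its call without the third 186wt library (adjusted p = 0.0678), and Dhcr7 without the first 343wt or the third 444wt library (adjusted p up to 0.0632). With all libraries of 444wt left out, 3 members were called, Fdft1, Sqle and Srebf2. The difference between the extreme samples was then 0.32 for Fdft1, 0.26 for Sqle, 0.08 for Srebf2 and 0.17 for Dhcr7 (log2), in place of 0.64, 0.47, 0.23 and 0.28. That of Cyp51 was 0.21 without 186wt, in place of 0.37.

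The other enzymes of the chain were followed in the same fit, in a list of 15 genes that begins with Acat2, the acetyl-CoA acetyltransferase. The difference between the samples passed the test for 12 of 15 (58.2% of all genes). Of the 12, 8 were highest in 444wt, where 21.7% of all genes passed and were highest. Compared with 186wt, 9 of the 15 were higher and 1 was lower in 444wt (26.1% and 16.3% of all genes). The median difference was 0.29 over the list, 0.39 over the members and 0.10 over all genes (log2). On the median ratio scale 8 were higher and 2 were lower (19.3% and 20.5% of all genes).

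Within the chain, the steps before squalene showed the largest differences. Fdps, the farnesyl pyrophosphate synthase that feeds Fdft1, was at 62.5 FPKM (186wt), 75.2 FPKM (343wt), 86.8 FPKM (456wt) and 100.4 FPKM (444wt), a difference of 0.68 between the extremes (log2, limma adjusted p = 2.85e-08). Idi1, which isomerises the isoprene unit, had 15.0, 19.9, 27.1 and 19.6 FPKM in 186wt, 343wt, 444wt and 456wt (limma adjusted p = 1.28e-06). Mvd, the decarboxylase before it, had 16.6, 18.2, 28.4 and 23.2 FPKM (limma adjusted p = 8.27e-07). These genes shared the high value in 444wt and the low value in 186wt with Fdft1.

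Not all enzymes followed. Pmvk, the phosphomevalonate kinase, and Sc5d, a desaturase of the late chain, did not pass the test (limma adjusted p = 0.0724 and 0.0697). Ebp, the isomerase of the late chain, was lowest in 444wt, with 28.7, 29.7, 18.9 and 20.4 FPKM in 186wt, 343wt, 444wt and 456wt (limma adjusted p = 5.59e-05). Among the genes of the meiosis-activating sterol steps, Lbr, which also encodes a lamin B receptor, had its highest mean in 456wt (35.1 FPKM) and its lowest in 343wt (24.2 FPKM). Tm7sf2, its parallel sterol reductase, was instead highest in 186wt with 9.86 FPKM, and Sc4mol, the methyl oxidase after it, was highest in 343wt with 25.8 FPKM and lowest in 456wt with 23.0 FPKM (limma adjusted p = 0.0133).

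**Figure D3:**
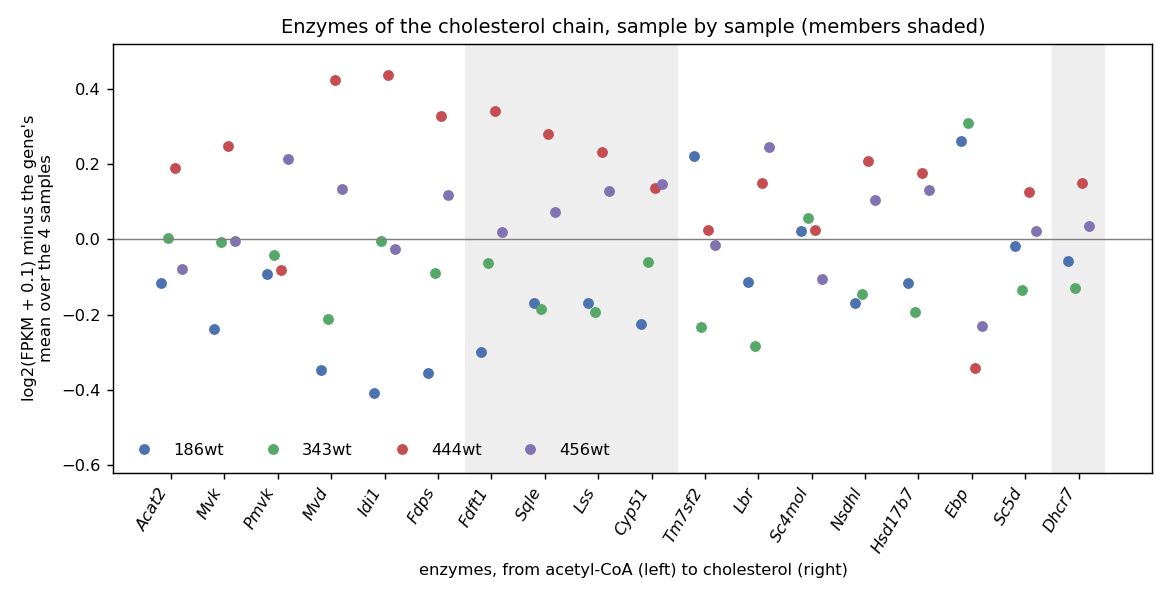
Members and 13 other enzymes of the chain in approximate order of the reactions (horizontal axis) against their log2(FPKM + 0.1) in each of 4 samples, as the difference from the gene's mean over the samples. Grey shading marks the 5 members that are enzymes with values, and each point is the mean of 3 libraries. Points of 444wt lie on top for most enzymes and at the bottom for Ebp.

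Genes that hold or release SREBP2 did not share one order. All 6 of this list passed the test (58.2% of all genes). Of these, 4 were highest in 186wt and 2 in 444wt, where 21.7% of all genes passed and were highest. Insig1, itself a target of SREBP2 that retains it, had 32.0, 35.1, 51.1 and 39.7 FPKM in 186wt, 343wt, 444wt and 456wt (limma adjusted p = 5.26e-09), the order of Fdft1. Insig2, its paralog, had the reverse extremes with 36.1, 31.0, 23.9 and 29.9 FPKM (limma adjusted p = 0.000777). Mbtps1 and Mbtps2, the proteases S1P and S2P, were both highest in 186wt with 79.7 and 12.0 FPKM, and so was Scap with 71.9 FPKM. Srebf1, which encodes the paralog that favours fatty acid genes, had its highest mean in 444wt (51.1 FPKM) and its lowest in 456wt (41.3 FPKM).

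Genes of cholesterol uptake and release from lysosomes passed the test in 7 of 8 cases (58.2% of all genes) and split by direction. Against 186wt, 2 were higher and 4 were lower in 444wt, where 26.1% of all genes were called higher and 16.3% lower. The lower genes were Scarb1, the HDL receptor of steroid-making and Sertoli cells, at 86.6 FPKM (444wt) against 122 FPKM (186wt), and Lrp8, Npc2 and Lipa. In the list of efflux and esterification, 6 of 7 passed, and with the same shares over all genes 1 was higher and 5 were lower in 444wt than in 186wt. Soat1, which esterifies cholesterol for storage, had 45.7, 41.1, 28.6 and 28.6 FPKM (limma adjusted p = 1.32e-09), and the exporter Abca1 was lowest in 444wt with 19.6 FPKM. Fatty acid synthesis genes passed in 6 of 7 cases as well (58.2% of all genes), and 4 of these were lowest in 456wt. Against 186wt, 4 were higher and 1 was lower in 444wt, with the same shares over all genes. On the median ratio scale 2 were higher and 1 was lower (19.3% and 20.5% of all genes). The lower gene was Scd2, the largest of the list by level, with 205, 219.6, 129.4 and 127.9 FPKM (limma adjusted p = 7.09e-12).

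**Figure D4:**
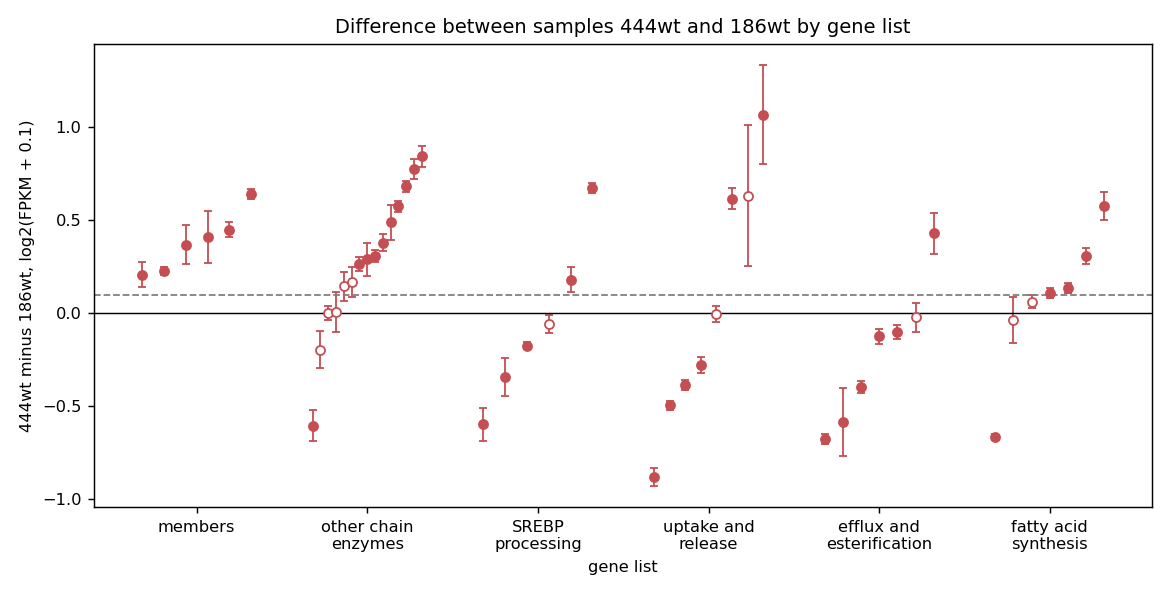
Difference between 444wt and 186wt on the log2(FPKM + 0.1) scale (vertical axis) for each gene of 6 lists, ordered by size within a list. Bars are the SE from limma, filled points passed an adjusted p-value of 0.05, open points did not, and the dashed line is the median of all genes tested (0.10). All 6 members lie above the line, and the uptake and efflux lists lie on both sides of it.

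Marker genes of the cell types in such a preparation also differed between the samples, and their part in the values above was not tested. The Sertoli cell list, found for 8 genes, summed to 4018 to 4043 FPKM in the libraries of 186wt and 4144 to 4173 FPKM in those of 343wt, but to 2325 to 2337 FPKM (444wt) and 2477 to 2503 FPKM (456wt) in the others. All 8 passed the test (58.2% of all genes), and all were called lower in 444wt than in 186wt (16.3% of all genes). Their defining genes Amh, Sox9 and Wt1 were at 70.1, 44.4 and 105.6 FPKM on average, although the cells were labelled as spermatocytes. The spermatogonial list ran the other way, with sums of 577 to 586 FPKM (186wt), 598 to 611 FPKM (343wt), 797 to 812 FPKM (444wt) and 717 to 726 FPKM (456wt). Of its 8 genes, 7 were highest in 444wt, compared with 36.3% of all genes tested. The order of its sums is that of the summed cholesterol synthesis genes and, among the single members, that of Fdft1 and Srebf2 only. Sqle, Lss and Dhcr7 had a higher mean in 186wt than in 343wt, and Cyp51 was highest in 456wt.

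The meiotic list of 9 genes was highest in 444wt (500 to 504 FPKM) and lowest in 343wt (298 to 304 FPKM). In it, 8 of 9 genes were highest in 444wt, compared with 36.3% of all genes tested. Leydig cell genes were lowest in 444wt, with sums of 15.6 to 17.8 FPKM there and 119.4 to 121 FPKM in 343wt. All 7 were called lower in 444wt than in 186wt (16.3% of all genes). Macrophage genes were likewise lowest in 444wt (8.60 to 10.7 FPKM) and highest in 343wt (42.8 to 43.8 FPKM). Peritubular myoid genes were highest in 456wt (1147 to 1170 FPKM) and lowest in 343wt (258 to 263 FPKM), and endothelial genes were highest in 456wt (36.8 to 39.3 FPKM). Round spermatid genes summed to at most 5.17 FPKM in a library, and Prm2 is listed at 0 in all. None of the other defining markers was at 0.

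**Figure D5:**
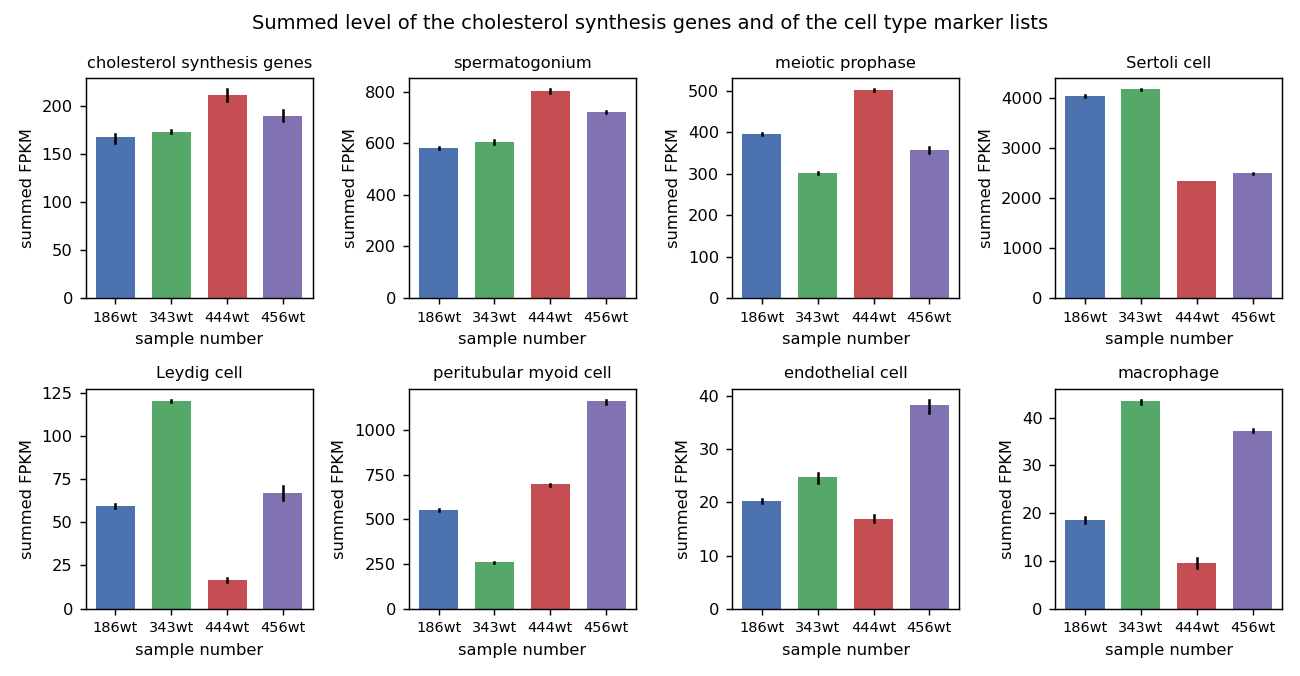
Summed FPKM (linear axes from 0, a scale for each panel) of the 6 cholesterol synthesis genes and of 7 lists of cell type markers in the 4 samples. Bars are sample means, and black lines span the 3 libraries. The sums of the cholesterol and spermatogonium panels rank the samples alike, an order that only Fdft1 and Srebf2 of the members share. The Sertoli, Leydig and macrophage panels are lowest in 444wt.

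The genes whose profile over the 4 samples was nearest to the mean profile of the members were Dnajc2, Sub1, Tbp, Drosha and Chml, by the root mean square difference of centred log2 values (0.0032 to 0.0087 over 4 points). Dnajc2 encodes a ribosome-associated co-chaperone, Tbp the TATA-binding protein and Drosha the nuclear microRNA processing nuclease. Dnajc2 had 53.5, 55.4, 69.6 and 62.7 FPKM in 186wt, 343wt, 444wt and 456wt. The median over 14342 candidate genes was 0.19, and Nsdhl, a dehydrogenase of the late chain, was the nearest of the 15 other enzymes with 0.026. The members themselves differed from their mean profile by 0.052 (Sqle) to 0.097 (Fdft1), which is farther than those 5 genes. With 4 points, many genes can resemble any profile.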

How the data were processed

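RNA-seq was measured in 12 libraries of 4 sample numbers. The FPKM that the authors deposited come from RSEM 1.2.8, run on 100-bp reads that Bowtie 0.12.9 had placed on transcripts of NCBI build 37, with reads of 2 or more mismatches left out. They are rounded to 2 decimals and have no counts beside them. Every column of values was used. Columns were assigned by name, and the 3 libraries of a number were averaged.

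Depth was estimated from the steps between low FPKM in 198 genes that have 1 transcript, 300 to 500 bp long. It was 14.6 M (mega) fragments for the first 186wt library (95% interval 14.6 to 14.7, scatter of these genes only). The sums of FPKM were between 477629 and 485096.

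Samples were compared by an F-test over the 4 numbers and by pairwise contrasts with limma 3.58.1 (eBayes with a mean-variance trend, R 4.3.3) on log2(FPKM + 0.1), in genes averaging 0.1 FPKM or more, with Benjamini-Hochberg adjustment over all of them and a threshold of 0.05. This scale understates the change of low genes. FPKM are not counts, so no count model was used. The depth estimate and the limma fit were tested on simulated data, and the other steps were not. There limma recovered 62.5% of 200 genes (among 20795) with a log2 change of 1 in 1 of the 4 samples, and 6.72% of its calls were false. Expected counting error is 1 over the square root of the estimated fragments, with the longest annotated transcript as the length of a gene. Promoter windows and genes were matched by symbol. Other values used Python 3.11.15, numpy 2.4.6, scipy 1.17.1, pandas 2.3.3 and matplotlib 3.10.9.

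The members, the pathway lists and the marker lists were chosen with earlier results of these data known. Genes named are the members, any gene of a list, and the 5 genes averaging 1 FPKM or more that were nearest to the members' mean profile. Those singled out within lists, and the genes that overlap a member, were chosen after their values were seen. Alternatives changed the pseudocount, the filter, the scaling and the libraries used, and leaving out single libraries was added after the data were seen. Some genes that this rule covers are counted in their lists and not reported here. Other assays of the study were not analysed here.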

Additional observations from a re-analysis of the deposited data

Results flagged for a closer look

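Dixon's test was applied to 63 values of the 4 samples. It divides the gap between the most extreme sample and the nearest other by the whole range. The values were the levels of the members and of the pathway genes and the sums of the lists. A sample stood apart from the other 3 in 1 of them, where chance gives about 1 in 20, or 3.15. Pmvk, the phosphomevalonate kinase of the early chain, had 7.12 FPKM in 456wt and 5.74 to 5.94 FPKM in the others (ratio 0.855, above the 95% critical value). Its mean was 6.15 FPKM, and 5.82 FPKM without 456wt. Pmvk did not pass the limma test between samples (adjusted p = 0.0724). No value of the 6 members stood apart in this way.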

How the results depend on the processing

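With median ratio scaling 3 members were called in place of 6 (56.2% of all genes in place of 58.2%), and the median range fell to 0.32 from 0.39 (log2). Leaving out a library number, a sample number or a single library gave 3 to 6 members called, compared with 45.9 to 56.7% of all genes. The median range was then 0.29 to 0.48. The number of members was 3 without 444wt (47.7% of all genes, median range 0.29). Rescaling to TPM (a common total, where the FPKM of a library sum to 485096 or less) moved the median member from 24.5 to 50.8. Library number as a replicate block left 6 members and 11774 genes called in place of 12107, and changed no call of a member. Deviations of same-numbered libraries from their sample means had r of -0.06 to 0.13 (18 pairs, across genes). Those of libraries with other numbers had r of -0.13 to 0.08 (36 pairs). These values cannot tell whether same-numbered libraries shared a step of their preparation. Over all alternatives 9516 to 12146 genes were called. Fdft1, Sqle and Srebf2 kept their calls in all 14 settings other than the single libraries, with limma adjusted p up to 0.000167, 0.00118 and 0.0338. Lss was called in 6, Cyp51 in 9 and Dhcr7 in 9 of them. The estimated fragments behind each value were 449 or more by the longest transcript, an upper limit, and 4 samples limit the comparison.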
